A study of Homo sapiens with 10 samples.

Results

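From the transforming growth factor beta (TGF-beta) and activin system, 10 genes were followed through all 10 RNA sequencing libraries of the series, chosen by gene symbol from the 46427 genes of the deposited table. They were the ligand genes TGFB1, TGFB2, TGFB3, INHBA and INHBB, the receptor genes TGFBR1, TGFBR2 and TGFBR3, the activin antagonist gene FST, and TGFBI, named for its induction by TGF-beta. Membership was by name, with no threshold on a measured value, and all 10 were found. Libraries came from H460 and A549 cells, 2 established human lung cancer lines. The study compared cells that survived a drug, and cells grown as tumor spheroids, with cells in ordinary 2D culture.

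The parental H460 cells (3 libraries) and the A549 2D cells (1 library) were grown on plates in medium with 10% serum. CR, PR and DR cells were H460 cells alive after 3 days of 4 µM cisplatin (1 library), 5 nM paclitaxel (2 libraries) or 0.5 µM doxorubicin (1 library), followed by 3 days of drug-free medium. TS cells (1 H460 and 1 A549 library) were kept in sphere culture with 20 ng/mL EGF, 20 ng/mL bFGF and B27, with no serum named. The labels call the TS libraries CTC, after circulating tumor cells, but the cells came from culture and not from blood. CR, PR and DR cells are mixed survivors of 1 exposure, not cloned lines, and parental cells without drug were the control for them all.

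TGF-beta is secreted in a latent form and held in the matrix by latent TGF-beta binding proteins, from which integrins and other factors release it. Active ligand binds the type II receptor, which then recruits and phosphorylates the type I receptor. The type I receptor phosphorylates SMAD2 and SMAD3, which enter the nucleus with SMAD4 and act on target genes. Activins are dimers of inhibin beta chains, signal to the same SMADs through their own receptors, and are bound and blocked by follistatin. In epithelial tumor cells the pathway is known for slowing the cell cycle, for matrix production and for epithelial-mesenchymal transition.

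Between 59499787 and 89541774 reads were counted on genes in a library (median 71656787). Of 6 epithelial markers, 4 had at least 1 FPKM in each H460 group, but EPCAM had at most 0.114 FPKM and CDH1 at most 0.0023 FPKM in parental cells. CDH1 had 9.29 and 11.9 FPKM in the A549 2D and TS libraries. The 3 endothelial markers summed to at most 0.182 FPKM in any library. Of the 4 leukocyte markers, 1 (CD68, a lysosomal protein also made by other cells) exceeded 1 FPKM, and the list summed to 15.1 to 16.9 FPKM in parental cells and 30.8 to 58.0 FPKM in the 4 drug-resistant libraries. The 5 fibroblast markers summed to 14.8 to 32.3 FPKM in parental, 8.91 to 20.3 FPKM in drug-resistant and 29.6 FPKM in H460 TS cells. The part of these markers in the results on TGF-beta genes was not tested. In such bulk samples, fewer cells of a type and less RNA per cell cannot be told apart.

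Start site sequences of INHBA, TGFBR2 and TGFBI, which rose in drug-resistant cells, and of TGFB2 for contrast are given here so that the genes can be placed in the genome (RefSeq, GRCh38.p14). Each window runs from 150 bases before to 20 bases after a transcript start, on the strand of the gene, and was searched on both strands for the TATA box (TATAAA), the SMAD element CAGACA, the AP-1 element (TGACTCA or TGAGTCA) and the CRE core TGACGTCA. Capitals mark the matches, none of which overlap. The windows are chr7:41703071-41703240 for INHBA (minus strand), chr3:30606451-30606620 for the second listed start of TGFBR2, chr5:136028838-136029007 for TGFBI and chr1:218345186-218345355 for TGFB2 (plus strand for the last 3).
INHBA: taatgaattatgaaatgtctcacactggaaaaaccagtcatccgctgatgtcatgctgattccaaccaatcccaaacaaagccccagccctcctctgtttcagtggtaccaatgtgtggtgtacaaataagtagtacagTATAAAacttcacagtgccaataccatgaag
TGFBR2: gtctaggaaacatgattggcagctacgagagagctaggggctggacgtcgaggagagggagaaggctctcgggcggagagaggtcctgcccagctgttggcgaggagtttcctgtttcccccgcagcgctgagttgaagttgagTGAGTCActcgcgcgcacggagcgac
TGFBI: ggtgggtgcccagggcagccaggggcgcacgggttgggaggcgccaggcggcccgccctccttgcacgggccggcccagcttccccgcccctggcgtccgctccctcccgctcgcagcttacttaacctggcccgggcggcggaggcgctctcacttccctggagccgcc
TGFB2: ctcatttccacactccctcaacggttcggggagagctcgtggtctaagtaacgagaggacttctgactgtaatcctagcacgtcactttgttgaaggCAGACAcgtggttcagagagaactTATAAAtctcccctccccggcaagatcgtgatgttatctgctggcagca

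The INHBA window held the letters TATAAA, whose first base lay 11 bases before the listed start. That start lies inside the span of the gene and not at its end. The TGFB2 window held a TATA box 29 bases before the start and the SMAD element 53 bases before it. The TGFBR2 window held the AP-1 element 6 bases before its start, while the window of the first of its 2 listed starts held none of the 4 motifs. TGFBR1, which also rose, has 8 listed starts and is not shown, and 1 of its windows held a match, the SMAD element on the opposite strand (TGTCTG) 17 bases before the start. The TGFBI window held none of the 4 motifs. Over windows of this length at all 35116 listed starts, 7.08% held the TATA box, 9.48% the SMAD element, 3.29% the AP-1 element and 1.59% the CRE core. A match describes letters and shows no binding.

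The ligand gene TGFB1 (chr19:41330323-41353922) differed little between parental and drug-resistant H460 cells. It had 16.6, 12.9 and 17.3 FPKM in parental replicates 1 to 3, then 14.8 in CR, 17.1 and 15.6 in the PR replicates and 18 in DR cells. H460 TS cells had 13.5 FPKM, and A549 cells 33.2 FPKM in 2D and 35.0 FPKM in TS culture. The H460 groups thus overlapped, and both A549 libraries lay above every H460 library.

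TGFB2 (chr1:218345336-218444619), the second isoform, had 6.50, 7.68 and 8.96 FPKM in parental cells, and 14.6, 9.74, 10.9 and 9.08 FPKM in CR, PR, PR and DR cells. The level was 10.5 FPKM in H460 TS cells. It was 15 FPKM in A549 2D cells and 3.98 FPKM in A549 TS cells. All 4 drug-resistant libraries lay above all 3 parental libraries, DR cells by the least, and the 2 A549 libraries were the highest and the lowest of the series.

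TGFB3 (chr14:75958097-75983011), the third isoform, was low in every library. Parental cells had 0.739, 0.522 and 0.596 FPKM, and CR cells had 0.578 FPKM. The PR libraries had 1.47 and 1.56 FPKM, and the DR library 0.851 FPKM. PR cells were the highest of the series for TGFB3, while CR cells were within the parental range. TGFB3 in H460 TS, A549 2D and A549 TS cells was at 0.394, 0.149 and 0.232 FPKM. Of the summed FPKM of the 3 TGF-beta isoforms, TGFB1 made 61.2 to 69.6% in parental cells, 49.3% in CR cells and 89.2% in A549 TS cells.

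INHBA (chr7:41685114-41705406) encodes the inhibin beta A chain, of which activin A is the dimer. Its level was 0.444, 0.241 and 0.162 FPKM in parental cells, 0.957 in CR cells, 3.44 and 3.54 in the PR replicates and 0.621 in DR cells. H460 TS cells had 3.54 FPKM, and A549 cells 1.11 FPKM in 2D and 1.22 FPKM in TS culture. The highest libraries were thus both of PR cells and that of H460 TS cells, and every drug-resistant library lay above every parental one. The counts behind these values were 228, 142 and 116 in parental cells and 379 to 1762 in drug-resistant cells. The transcript length implied by count and FPKM ran from 6808 to 9743 bases between libraries for INHBA, a 1.43-fold range, so that folds of FPKM and of counts differ for this gene. Whether counting used the strand is not given in the sources used here, so reads of a gene and of a transcript antisense to it cannot be told apart. The antisense transcript INHBA-AS1 had 0 to 9 counts and TGFB2-AS1 had 8 to 44 counts per library.

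INHBB (chr2:120346136-120351803), which encodes the inhibin beta B chain of activin B, was nearly absent from H460 cells. It had 2, 0 and 0 counts in parental cells, 6 in CR, 39 and 39 in PR, 6 in DR and 0 in H460 TS cells. A549 cells had 7743 counts in 2D and 4475 in TS culture, or 32.1 and 17.2 FPKM. The 0 counts of H460 TS cells allow up to 0.0483 CPM (counts scaled to the size of the library), if 3 counts could be missed by chance. Intervals and such limits cover counting error only, and since every library had fewer genes at 1 count than at 2, a count may stand for less than 1 independent read.

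TGFBR1 (chr9:99103647-99154192) encodes the type I receptor kinase, which passes the signal on to SMADs. Parental cells had 29.1, 34.1 and 26.4 FPKM, CR cells 49.9, PR cells 72.9 and 42.5, and DR cells 63.3 FPKM. H460 TS cells had 6.89 FPKM, A549 2D cells 7.09 and A549 TS cells 5.53 FPKM. Every drug-resistant library lay above the parental range, and H460 TS cells lay at the level of A549 cells, below every other H460 library.

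TGFBR2 (chr3:30606356-30694142), the type II receptor that binds ligand first, had 4.80, 4.45 and 5.44 FPKM in parental cells. It had 11.7 FPKM in CR, 10.7 and 10.5 in PR and 16.3 in the DR library. H460 TS cells had 5.94 FPKM, and A549 cells 23.5 FPKM in 2D and 85.8 FPKM in TS culture. The drug-resistant libraries lay above the parental ones without overlap, DR cells highest, and both A549 libraries lay above every H460 library.

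TGFBR3 (chr1:91680343-91906002), the co-receptor betaglycan, which presents TGFB2 to the signalling receptors, stayed below 1 FPKM in all H460 libraries. It had 0.603, 0.380 and 0.373 FPKM in parental cells and 0.558 to 0.904 FPKM in drug-resistant cells. H460 TS cells had 0.185 FPKM, the lowest level of the series, and A549 cells 1.01 FPKM in 2D and 4.01 FPKM in TS culture, the highest.

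FST (chr5:53480629-53487134) encodes follistatin, the secreted antagonist of activins. Parental replicate 1 had 12.5 FPKM and replicates 2 and 3 had 43.7 and 39.1 FPKM. CR, PR, PR and DR cells had 54.7, 39.9, 38 and 38.6 FPKM, and H460 TS cells 48.6 FPKM. A549 2D cells had 8.99 FPKM and A549 TS cells 0.239 FPKM. Parental replicate 1 stood apart from the other 2, and the drug-resistant libraries other than CR lay within the parental range.

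TGFBI (chr5:136028988-136063818) encodes a secreted matrix protein that binds integrins, and had the highest FPKM of the 10 genes in every library except A549 TS. Parental cells had 569.8, 678 and 928 FPKM, and CR, PR, PR and DR cells 3079, 2369.5, 2755 and 2769 FPKM. TGFBI in H460 TS cells was at 611 FPKM, and A549 2D cells had 300.5 FPKM and A549 TS cells 69.8 FPKM. The drug-resistant libraries lay well above the parental range, within which H460 TS cells fell.

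**Figure D1:**
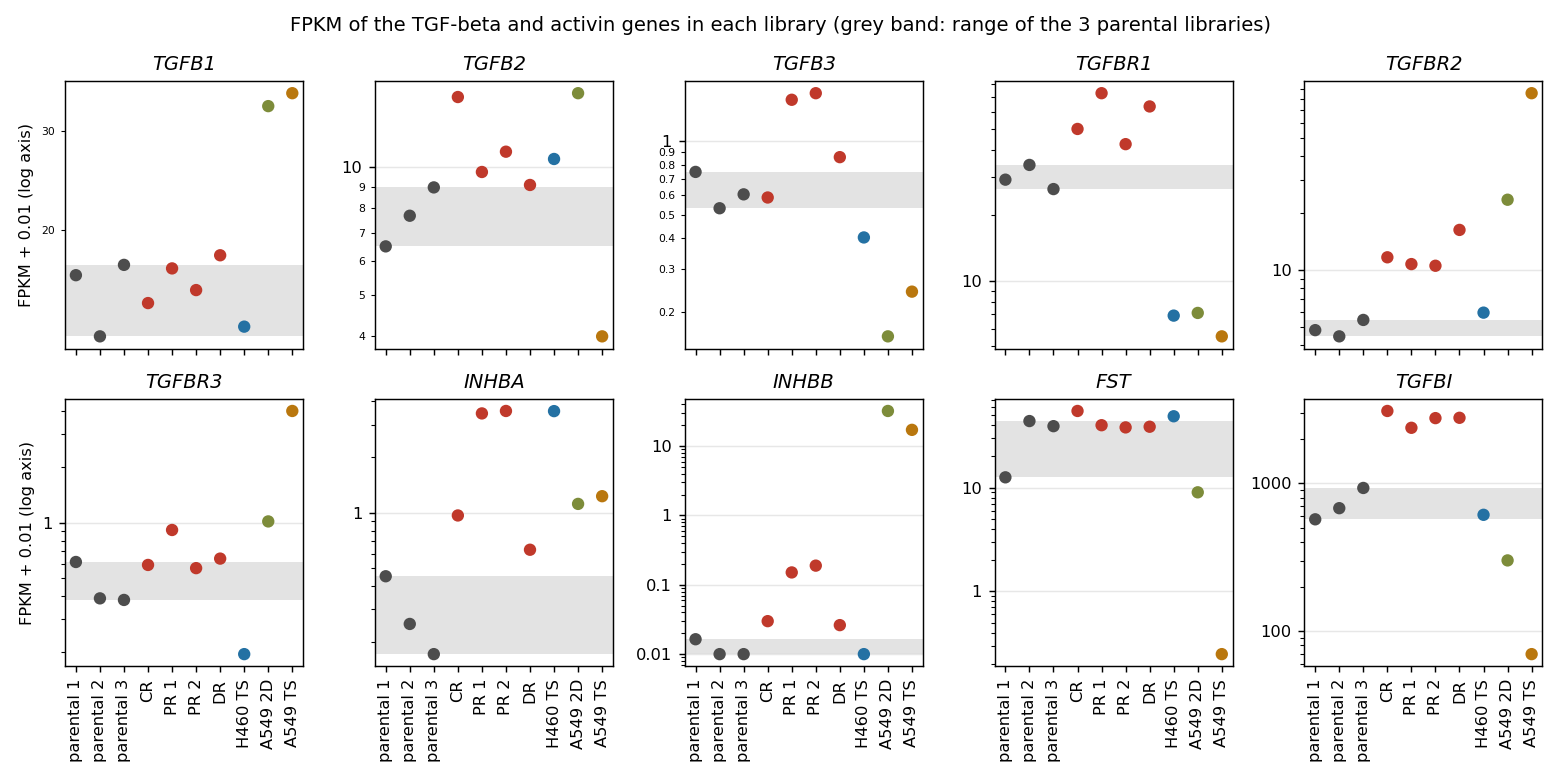
FPKM of the 10 genes in each library on a log axis, with 0.01 added so that 0 can be drawn, 1 panel per gene and 1 point per library (grey parental H460, red drug-resistant H460, blue H460 TS, green A549 2D, orange A549 TS). The grey band spans the 3 parental libraries, and the 4 red points lie above it for TGFB2, TGFBR1, TGFBR2, INHBA, INHBB and TGFBI.

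The first comparison asked how these genes differ between cells that survived any of the drugs and parental cells. Of the 9 genes with enough counts to be tested, 4 were upregulated and 0 downregulated in the 4 drug-resistant against the 3 parental libraries (edgeR quasi-likelihood test, adjusted p under 0.05 over all genes tested). INHBB was not tested for want of counts. Over all 18398 genes tested, 33.8% passed the threshold, 18.4% as higher and 15.4% as lower. With upper-quartile factors in place of TMM these calls split into 4193 higher and 2031 lower, against 3382 and 2838, and the median of all genes moved from 0.06 to 0.23. The 4 genes were the target TGFBI, both signalling TGF-beta receptors and the activin chain INHBA. All 4 drug-resistant libraries lay above all parental libraries in FPKM for 6 of the 10 genes, beside 21.7% of the 12755 genes that reached 1 FPKM in 2 or more of these 7 libraries. The 6 were these 4, TGFB2 and INHBB. Since INHBB and TGFBR3 did not reach that level, the 6 of 10 and the 21.7% cover genes chosen differently. INHBA reached it only in the 2 PR libraries, where it was high.

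TGFBI rose by 1.8 ± 0.275 on the log2 scale (SE, 4 against 3 libraries, adjusted p = 0.00114 by edgeR). Its mean was 725 ± 184 FPKM over the parental libraries (SD, n = 3) and 2743 ± 291 FPKM over the drug-resistant ones (SD, n = 4), a ratio of 3.78, and CR, PR and DR cells were 4.25, 3.53 and 3.82 times above the parental mean. The 3 drugs thus gave like folds for TGFBI.

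TGFBR2 rose by 1.22 ± 0.228 (adjusted p = 0.00305, edgeR) and TGFBR1 by 0.88 ± 0.203 (adjusted p = 0.0085, edgeR). The mean FPKM of TGFBR2 was 2.38, 2.17 and 3.32 times the parental mean in CR, PR and DR cells. That of TGFBR1 was 1.67, 1.93 and 2.12 times the parental mean. For both receptors DR cells had the highest mean, and the 2 PR replicates of TGFBR1 were farther apart (72.9 and 42.5 FPKM) than the parental libraries.

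INHBA rose by 2.56 ± 0.575 (adjusted p = 0.00748, edgeR), with a 95% interval from 1.29 to 3.84. Its mean FPKM was 12.4 times the parental mean in PR cells, but 3.39 times in CR and 2.20 times in DR cells, so that the 4 libraries spread more for INHBA than for the other 3 genes. On the log2(FPKM + 1) scale of limma the change of INHBA was 1.15, since that scale understates the change of genes with low levels.

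The ligands TGFB1, TGFB2 and TGFB3, the co-receptor TGFBR3 and FST did not pass the test. The estimates were -0.05 for TGFB1 (95% interval from -0.46 to 0.37), 0.42 for TGFB2 (from -0.10 to 0.93) and 0.71 for TGFB3 (from -0.04 to 1.47). They were 0.44 for TGFBR3 (from -0.19 to 1.08) and 0.32 for FST (from -0.48 to 1.13). A doubling thus lay outside the interval for TGFB1 and TGFB2, and inside it for TGFB3, TGFBR3 and FST. For TGFB2 the upper limit was close to a doubling, and its estimate ran from 0.197 to 0.58 under the alternatives. The sign for TGFB1 turned with upper-quartile factors (0.13), and that for FST turned to -0.08 without parental replicate 1.

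Taken singly and on the log2(FPKM + 1) scale, 2 of the 10 genes were more than 2-fold above the parental mean in CR cells (TGFBR2 and TGFBI), beside 12.1% of 13439 genes, 5.49% higher and 6.64% lower. In PR cells 2 were (INHBA and TGFBI), beside 13.0%, 7.43% higher and 5.54% lower. In DR cells 3 were (TGFBR1, TGFBR2 and TGFBI), beside 10.8%, 5.4% higher and 5.35% lower. These counts moved with the settings, to 1 (against parental replicate 3) or 4 (against parental replicate 1 or with upper-quartile scaling) in CR cells, and in PR cells to 5 with a pseudocount of 0.1 and to 4 against parental replicate 1 or with upper-quartile scaling. Against the parental mean on the log2(FPKM + 1) scale TGFBI was past 2-fold for each of the 3 drugs. None of the 10 was more than 2-fold lower for any drug on that scale.

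The labels write library names in 2 forms, whose meaning they do not give. One form held 1 drug-resistant library (PR replicate 1) and 2 parental libraries, and the other 3 and 1. The name of PR replicate 1 alone also ends in exp, which the labels do not explain. Within these forms the difference in log2 CPM was 1.48 and 2.01 for TGFBI, 0.84 and 1.44 for TGFBR2, 1.13 and 0.58 for TGFBR1, and 3.24 and 1.94 for INHBA. The 4 genes were thus higher in drug-resistant cells within both forms, which in the first form rests on that 1 PR library. They also passed the test in each of the 13 alternative fits. Nothing in the labels says that replicates were separate cultures, so the p-values measure the spread between these libraries, which may be technical.

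**Figure D2:**
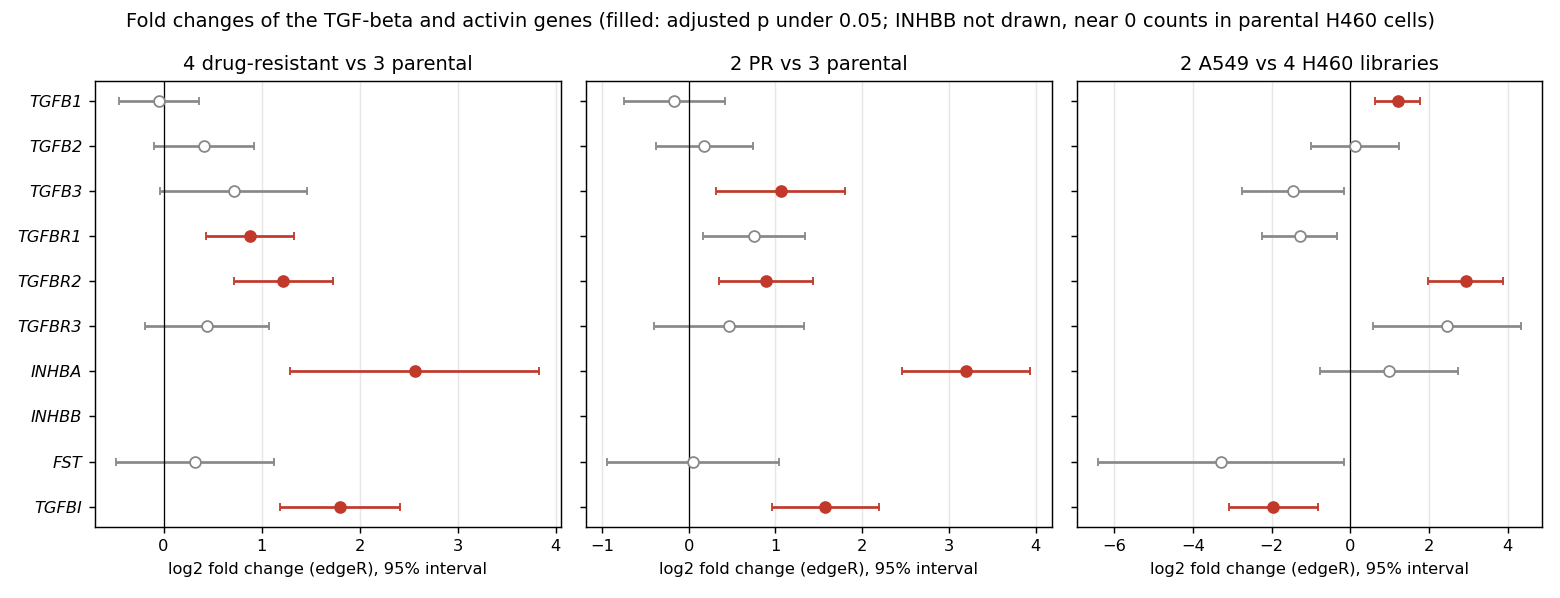
Log2 fold changes with 95% intervals by edgeR in 3 comparisons, 1 row per gene, with filled red points for an adjusted p under 0.05 and open grey points otherwise. TGFBI, INHBA and TGFBR2 are filled in both comparisons with parental H460 cells, while TGFBR1 is filled in the first and TGFB3 in the second. INHBB, which passed in PR and in A549 cells, is not drawn, and TGFBI lies on the lower side in A549 cells.

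PR cells, the drug-resistant cells with a replicate, were also compared alone with parental cells. These libraries were part of the comparison above. In PR cells 5 of 10 genes passed the test as higher (INHBA, INHBB, TGFBI, TGFBR2 and TGFB3) and 0 as lower, beside 28.1% of 19430 genes, 17.4% as higher and 10.7% as lower. INHBB, near 0 counts in parental cells, entered this fit only through the PR libraries and so could be called only as higher. With upper-quartile factors 4185 genes were higher and 1364 lower, against 3381 and 2085. INHBA rose by 3.20 ± 0.328 (2 against 3 libraries, adjusted p = 8.12e-04 by edgeR). TGFBI rose by 1.57 (adjusted p = 0.00436), TGFBR2 by 0.89 (adjusted p = 0.0229) and TGFB3 by 1.06 (adjusted p = 0.0397).

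INHBB passed with an adjusted p of 0.00425 by edgeR in PR cells. The 78 counts in 133458030 reads of PR cells against 2 in 212774631 reads of parental cells give a ratio of rates of 62.2, with an exact 95% counting interval from 16.6 to 522. The level in PR cells was still 0.141 and 0.179 FPKM. TGFBR1 stood at 0.75 with an adjusted p of 0.0592 by edgeR, which became 0.0156 with upper-quartile factors, 0.0383 with DESeq2 and 0.0433 with limma. The TGFB3 call was lost in 6 of 12 alternatives, with an adjusted p of up to 0.251. Without PR replicate 2, 1 of the 10 genes passed (INHBA), and without PR replicate 1 or parental replicate 2, 3 did.

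PR cells were set against CR and DR cells to ask whether the microtubule drug differs from the DNA-damaging drugs. By edgeR 0 of 19770 genes (0.0%) passed, with 2466 at an unadjusted p under 0.05, while DESeq2 called 355 genes and limma 101. INHBA was 1.96 ± 0.365 higher on the log2 scale in PR cells (2 against 2 libraries, 95% interval from 1.14 to 2.79, adjusted p = 0.127 by edgeR). For INHBA the adjusted p was 7.854e-05 with DESeq2, 0.00735 with limma and 0.00126 without a filter on low counts. The other 9 genes passed in none of these fits. The estimates were 2.83 for INHBB (39 and 39 counts against 6 and 6), 0.89 for TGFB3 and -0.56 for TGFBR2, with adjusted p-values of 0.243, 0.327 and 0.38 by edgeR.

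TS cells were compared with 2D cells of both lines in 1 fit with the line as a covariate. None of the 10 genes passed the edgeR test, beside 35 of 18372 genes or 0.191% (0.147% higher and 0.0435% lower), while 1352 genes had an unadjusted p under 0.05 and DESeq2 called 527. The estimates were 2.30 for INHBA (95% interval from 0.55 to 4.04), -1.28 for TGFBR1 (from -2.24 to -0.33), 0.98 for TGFBR2 and -0.91 for TGFBI, with adjusted p-values from 0.41 to 0.82. With 1 TS library per line, the difference between the lines entered the spread of this fit. The rise of INHBA came from H460 cells, with 1.58 to 3.10 CPM in parental and 24.8 CPM in TS cells. In A549 cells INHBA had 10.3 CPM in 2D and 8.60 CPM in TS culture.

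In H460 cells 2 of 10 genes were more than 2-fold from the parental mean on the log2(FPKM + 1) scale, INHBA higher by 1.83 and TGFBR1 lower by 1.96. Of 13439 genes, 3.3% were, 1.48% higher and 1.82% lower. In FPKM, INHBA was 12.5 times the parental mean, and TGFBR1 was at 0.231 of it. When either A549 library was left out, the fit compared H460 TS with parental cells alone and both genes passed it, with a log2 change of 3.46 for INHBA (adjusted p = 0.00664 or 0.00498 by edgeR) and of -1.94 for TGFBR1 (0.0448 or 0.0414). The single TS library was then assumed to vary like the parental libraries.

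In A549 cells 5 of 10 genes were more than 2-fold from the 2D library, beside 7.22% of 13439 genes, 4.73% higher and 2.49% lower. TGFBR2 was higher by 1.83 and TGFBR3 by 1.32, or 3.66 and 3.98 times in FPKM. FST was lower by 3.01, TGFBI by 2.09 and TGFB2 by 1.68, and their TS levels were 0.027, 0.232 and 0.266 of those in 2D cells. These comparisons rest on 1 library each and have no replicate check. No gene of the 10 passed 2-fold in both lines.

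**Figure D3:**
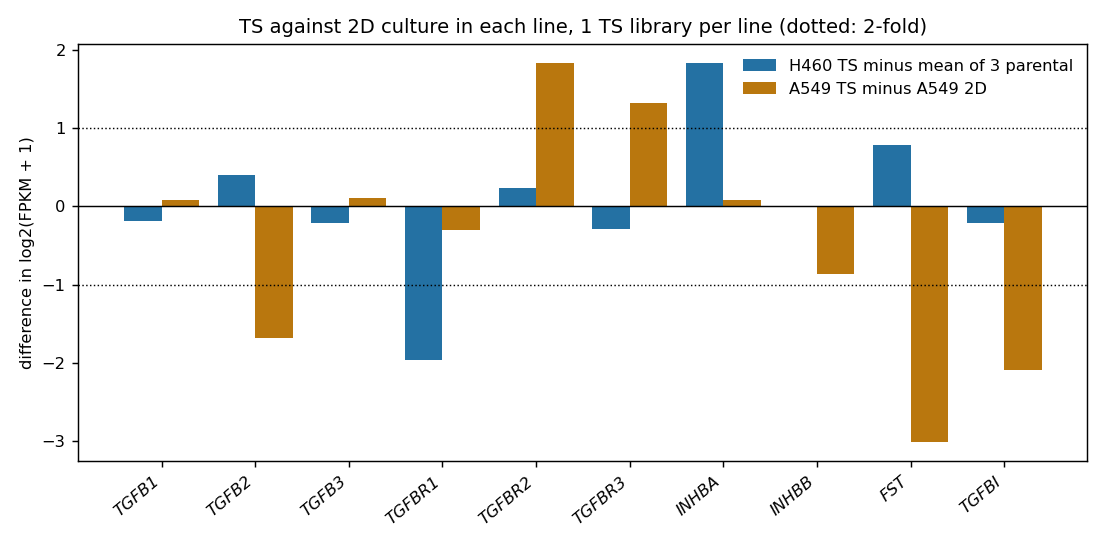
Difference in log2(FPKM + 1) of TS from 2D cells for each gene, H460 in blue (against the mean of 3 parental libraries) and A549 in orange (against 1 library), with dotted lines at 2-fold. INHBA (1.83) and TGFBR1 (-1.96) pass the lines in H460 cells, and TGFB2, TGFBR2, TGFBR3, FST and TGFBI pass them in A549 cells.

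The lines were compared in the same fit, with culture as a covariate. In A549 cells 3 of 10 genes were higher and 1 lower than in H460 cells, beside 23.8% of 18372 genes, 14.3% higher and 9.43% lower. TGFBR2 was higher by 2.93 ± 0.399 (2 against 4 libraries, adjusted p = 0.00342 by edgeR) and TGFB1 by 1.20 ± 0.246 (adjusted p = 0.015). TGFBI was lower by 1.96 ± 0.479 (adjusted p = 0.0274). INHBB entered this fit only through its counts in A549 cells and so could be called only as higher. For INHBB, with 12218 counts in A549 and 2 in the 4 H460 libraries, the ratio of rates was 12501 with an exact 95% counting interval from 3460.01 to 103239.9 and an adjusted p of 6.4e-05 by edgeR.

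TGFBR1 stood at -1.29 (adjusted p = 0.059), TGFBR3 at 2.45 (0.0667), TGFB3 at -1.47 (0.0983) and FST at -3.29 (0.12) in this fit by edgeR. DESeq2 and limma each called 7 of the 10 genes. The TGFB1 call was lost in 3 and the TGFBI call in 4 of 11 alternatives, all of which left out 1 library. Without H460 TS, A549 2D or A549 TS cells the adjusted p of TGFB1 was 0.0704, 0.081 or 0.061 by edgeR. For TGFBI it was 0.078 without H460 TS, 0.0546 and 0.0667 without parental replicates 2 and 3, and 0.0783 without A549 TS cells. The calls of TGFBR2 and INHBB held in all 11.

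Ratios within a library do not depend on its scaling. The FPKM of TGFBR1 was 4.85 to 7.65 times that of TGFBR2 in parental cells and 3.89 to 6.79 times in drug-resistant cells, and these ranges overlap. The ratio was 1.16 in H460 TS cells, 0.302 in A549 2D cells and 0.0644 in A549 TS cells. The type I receptor transcript was thus the more abundant per length in the H460 libraries and the type II transcript in the A549 libraries.

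The FPKM of FST over the sum of INHBA and INHBB was 27.9, 182 and 241 in parental cells, 11.2 and 10.2 in PR, 56.0 in CR, 60.5 in DR and 13.8 in H460 TS cells. It was 0.27 and 0.013 in A549 2D and TS cells. The antagonist transcript thus exceeded those of the activin chains in every H460 library and was below them in both A549 libraries. The PR and H460 TS libraries lay below every parental library, while CR and DR cells lay between the parental ones.

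**Figure D4:**
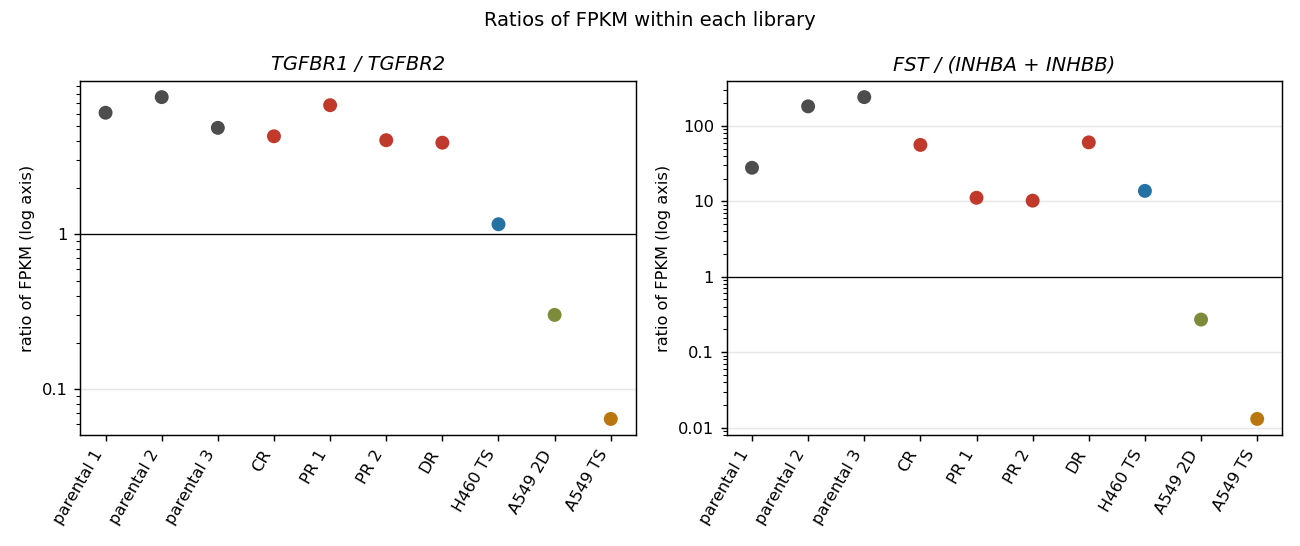
Ratio of FPKM within each library on a log axis, TGFBR1 over TGFBR2 on the left and FST over the sum of INHBA and INHBB on the right, with the same colours as the plot of levels and a line at 1. All H460 libraries lie above the line and both A549 libraries below it in both panels.

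The wider pathway was described with lists of genes by role, whose counts in drug-resistant cells stand beside 18.4% higher and 15.4% lower over all genes tested. The lists were chosen with earlier results of these data known, so their counts are a description and no test of the pathway. Genes near 0 in parental cells were tested only because of the drug-resistant libraries and could be called only as higher. Among genes of latency and activation of TGF-beta, 7 of the 9 tested rose in drug-resistant H460 cells and 0 fell, with a median log2 change of 1.35 beside 0.06 over all genes tested. LTBP1, a latent TGF-beta binding protein, rose by 3.16 (adjusted p = 1.8e-04 by edgeR), from 0.51 to 1.06 FPKM in parental to 6.28 to 7.81 FPKM in drug-resistant cells. LTBP2 rose by 3.07, LTBP3 by 1.35, THBS1, a thrombospondin that can activate latent TGF-beta, by 2.81 at levels below 1 FPKM, ITGB8 by 1.16 and ITGAV, which pairs with it, by 0.67. ITGB6 also passed, but had 0 FPKM in parental cells and stayed at or below 0.10 FPKM in all H460 cells.

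Of 17 SMADs and their regulators tested, 5 rose and 3 fell, the latter near the share of all genes, with a median of -0.05. SMAD3, 1 of the 2 SMADs of the TGF-beta branch, rose by 1.05 (adjusted p = 0.00486) and SMAD2, the other, fell by 0.63 (adjusted p = 0.0299 by edgeR). In FPKM, SMAD2 was at 0.577 and 0.55 of the parental mean in CR and DR cells but at 1.14 times it in PR cells, which alone did not pass the test (log2 change in counts -0.48, adjusted p = 0.177 by edgeR). The inhibitory SMAD7 rose by 1.46 and PMEPA1, a feedback inhibitor, by 2.79. In FPKM, SMAD7 was 4.37 times the parental mean in PR cells, but 1.44 times in CR and 1.89 times in DR cells. SMURF1, a ubiquitin ligase, rose by 1.14 and the corepressor TGIF1 by 0.70, while TGIF2 fell by 1.59 and SMAD1, of the BMP branch, by 0.57. The FPKM of TGIF1 was 2.18 times the parental mean in PR, 1.55 times in DR and 1.17 times in CR cells.

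Of 15 genes known to be induced by TGF-beta, 10 rose and 1 fell in drug-resistant cells, with a median of 1.46. FN1, the matrix protein fibronectin, rose by 2.81 (adjusted p = 0.00325 by edgeR), from 171 to 911 FPKM in parental to 3315 to 4804 FPKM in drug-resistant cells. COL1A1 rose by 4.35 and IGFBP3 by 1.94, while COL4A1 fell by 1.58. The mean of COL1A1 was 0.155 FPKM in parental and 6.39 FPKM in PR cells, with 0.783 FPKM in CR and 1.41 FPKM in DR cells. CCN2 stood at -0.30 (adjusted p = 0.66 by edgeR), and SKIL, BHLHE40 and TPM1 did not pass the test either. LTBP2, THBS1, ITGB6, SMAD7, SKIL and PMEPA1 stand in a second list as well.

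Among other receptors of the family, 4 of 10 tested rose (ACVR1, ACVR1C, BMPR1B and the decoy receptor BAMBI) and 0 fell. BAMBI rose by 1.61 and the type I receptor ACVR1 by 1.00, whereas ACVR1C and BMPR1B were below 0.3 FPKM. The activin receptors ACVR1B, ACVR2A and ACVR2B did not pass, with log2 changes of 0.30, 0.38 and -0.40. Of 9 other ligands tested, GDF15, BMP2 and MSTN rose and GDF11 fell. GDF15 rose by 3.89, from 13.8 to 34.1 FPKM in parental to 233 to 643 FPKM in drug-resistant cells, and BMP2 and MSTN stayed below 1 FPKM. Of 6 other secreted antagonists, 4 had enough counts to be tested. FSTL3, which like follistatin binds activins, rose by 0.48 (adjusted p = 0.0482 by edgeR). NOG, CHRD and DCN rose at levels below 0.5 FPKM, CHRD and DCN from means of 0.0071 and 0.0116 FPKM in parental cells.

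In the fit of TS against 2D cells, 0 genes of these lists passed by edgeR. The median log2 change was -0.86 over the 15 genes induced by TGF-beta, -0.03 over the 10 tested latency genes and -0.18 over the SMAD list, beside -0.01 over all genes. Single induced genes went both ways on the log2(FPKM + 1) scale, with 1 TS library per line. IGFBP3 was past 2-fold higher in both lines (2.067 in H460 and 3.085 in A549 cells) and FN1 in A549 cells (5.158). In A549 cells COL4A1 (-2.638), TPM1 (-1.763), SMAD7 (-1.684) and TAGLN (-1.683) were past 2-fold lower. In A549 against H460 cells, 9 of the 15 induced genes were higher and 1 lower, and 6 of 10 latency genes were higher and 1 lower, beside 14.3% higher and 9.43% lower over all genes. PMEPA1 was higher by 4.67, SMAD7 by 3.62 and SMAD3 by 2.39, while ITGB8 was lower by 4.17.

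**Figure D5:**
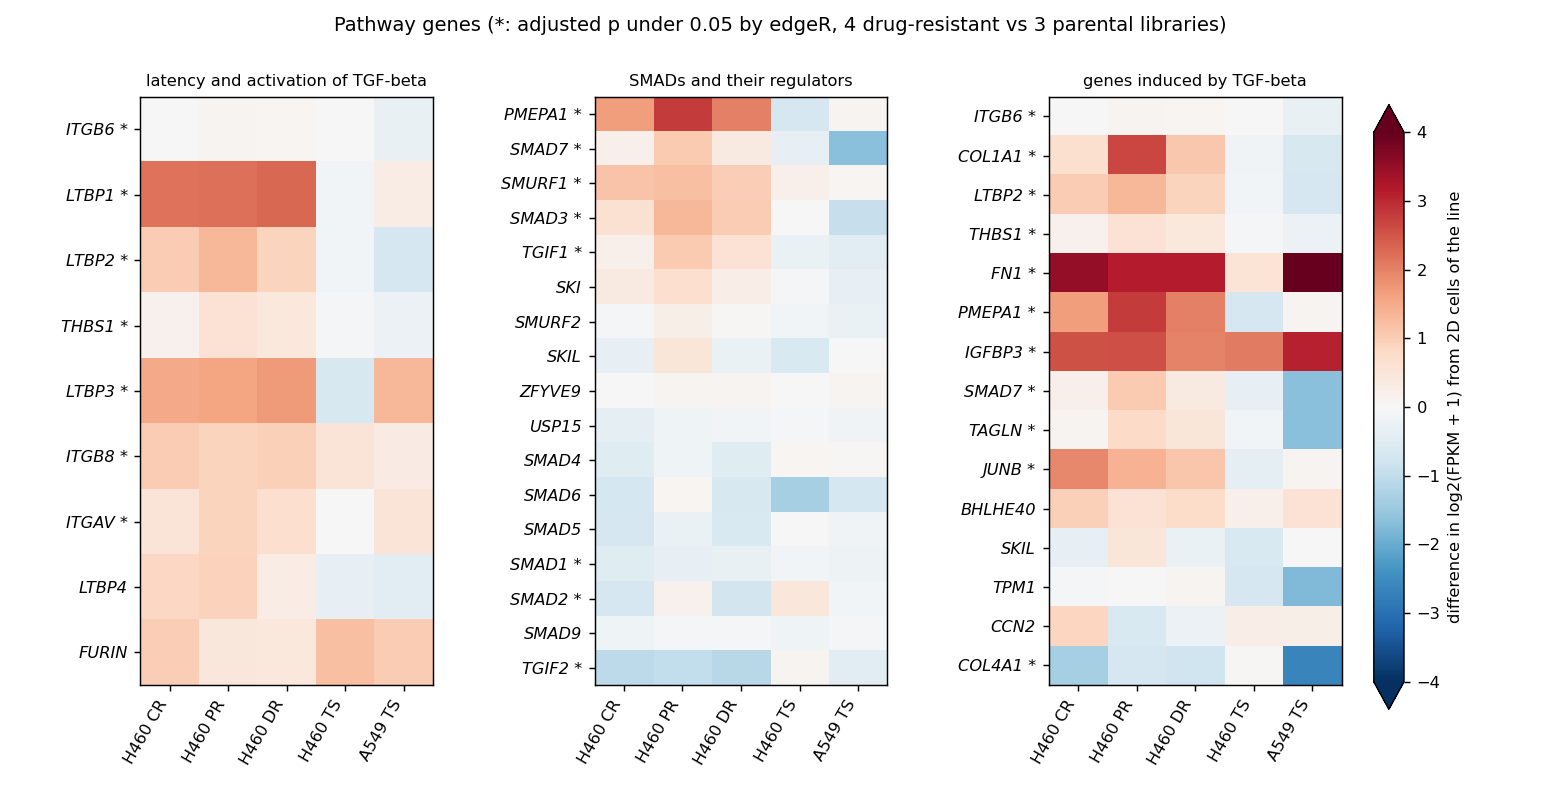
Difference in log2(FPKM + 1) from 2D cells of the same line (colour, scale from -4 to 4) for tested genes of 3 lists in CR, PR, DR and TS cells, ordered by their log2 change in drug-resistant cells, with a star for an adjusted p under 0.05 by edgeR in that comparison. LTBP1, FN1, PMEPA1 and IGFBP3 are red in all 3 drug columns, and ITGB6 has a star but almost no colour because its FPKM is near 0.

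As a description of pattern, genes were ranked by Pearson's r of log2(FPKM + 1) over the 10 libraries, which share the split between the lines. The closest to TGFBI were ALPK2 (r = 0.985), DCLK2 (0.982) and SGK1 (0.98). For TGFBR1 they were GYPE (0.972), DSTYK (0.971) and LHFPL6 (0.969), and for TGFBR2 MYO18A (0.984), SERINC2 (0.978) and PLCL2 (0.978). INHBA was closest to IL1B (0.906), TAF1C (0.905) and MKNK2 (0.898), and TGFB1 to EXTL3 (0.977), ACTN4 (0.976) and TMEM184B (0.975). For TGFB2 they were SIK1B (0.946), SIK1 (0.927) and POLR2J3 (0.858), and SIK1B and SIK1 are near-identical copies whose reads may be split. Among the 10 genes themselves, TGFBI had r = 0.866 with TGFBR1 and -0.509 with TGFBR2.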

How the data were processed

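Poly(A) RNA was sequenced in 10 libraries after TruSeq preparation, and 1 table of 46427 genes with NCBI Gene identifiers was used. It holds the authors' raw read count of each gene and library, and the FPKM and TPM that the authors derived from the reads by scaling for transcript length and library size. The submitters' processing notes name bcl2fastq 1.8.4, Trimmomatic, HISAT2 2.1.0, StringTie 2.1.3b and GRCh38. Levels are FPKM, and TPM was not tested.

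Counts were compared with the edgeR 4.0.16 quasi-likelihood test (TMM factors, filterByExpr, robust fit) in R 4.3.3, with Benjamini-Hochberg adjustment over all genes tested and a threshold of 0.05. The log2 fold change over the square root of F gave the SE. The fit of drug-resistant cells took 4 libraries of 3 drugs as 1 group, so its spread includes differences between drugs. Single libraries were called past 2-fold on log2(FPKM + 1), which understates changes of low genes. The control was the mean of the 2D libraries of the line, and the background was the 13439 genes that reached 1 FPKM in 2 or more of the 10 libraries. Alternatives were RLE and upper-quartile factors, no filter, DESeq2 1.42.0, limma 3.58.1 on log2(FPKM + 1), the form of the library name as a covariate, a replicate block, each library left out in turn, and, for single libraries, a pseudocount of 0.1, single parental controls and upper-quartile scaling. The fits were run on simulated data with the same fixed spread for every gene and no differences between drugs. That run checks the code and does not give the error rates for these libraries.

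All 10 genes are named. Genes of the lists are given by counts, and those past the threshold may be named, while 2 genes first on the lists are not reported here and were left out of their counts and medians. The 3 most alike genes in pattern are given for genes with a mean FPKM of at least 1, except for INHBB, which rests on the A549 libraries, and for FST. The genes and lists were chosen with earlier results of these data known. Positions and start sites are those of RefSeq on GRCh38.p14, with start sites for all 10 genes. A count of 0 was taken to allow up to 3 counts, and intervals are at the 95% level. Tables and plots were made in Python 3.11.15 using pandas 2.3.3, numpy 2.4.6, scipy 1.17.1 and matplotlib 3.10.9.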

Additional observations from a re-analysis of the deposited data

Results flagged for a closer look

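Among the 4 drug-resistant H460 libraries, the FST level of CR cells (54.7 FPKM) lay far from the other 3, which had 38 to 39.9 FPKM. Its gap to the nearest was above Dixon's critical value at 95%, which chance passes in about 1 in 20 groups.

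For 4 genes, the FPKM of TS cells moved in opposite directions in the 2 lines, with 1 TS library per line, and this difference was not tested. The difference in log2(FPKM + 1) of A549 TS from A549 2D cells was -1.68 for TGFB2, 0.10 for TGFB3, 1.32 for TGFBR3 and -3.01 for FST. In H460 TS cells against all 3 parental libraries it had the other sign, at 0.41, -0.21, -0.29 and 0.78 from their mean. The A549 difference of TGFB3 was small and at a low level, from 0.149 FPKM (39 counts) in 2D to 0.232 FPKM (66 counts) in TS culture.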

How the results depend on the processing

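The number of libraries set the precision, except for INHBB in H460 cells, where depth did. Of 570 values of single genes under an alternative, 501 kept their direction and their side of the threshold, 18 lost the threshold, 24 gained it and 27 changed sign. The cause of these changes was not tested. In drug-resistant against parental cells, the count of the 10 genes called (4) and that of all genes called stayed within 1.5 times under all 13 alternatives.

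The log2 change of TGFB1 turned positive in drug-resistant cells with upper-quartile factors (0.126), with limma (0.071) and with the form of the library name as a covariate (0.06), and in PR cells with upper-quartile factors and with limma (0.071 in both). In PR cells limma called 3026 genes against 5466. In TS cells 70 genes were called without a filter and 527 with DESeq2, against 35. In A549 cells DESeq2 and limma called 7 of the 10 genes against 4. Between PR and the other drug-resistant cells 316, 355 and 101 genes were called without a filter, with DESeq2 and with limma, 1 of the 10 (INHBA) in each, against 0. Past 2-fold in CR cells were 4 of the 10 genes with upper-quartile scaling, 4 against parental replicate 1 and 1 against replicate 3, where 2 were against the mean. In PR cells 5 were with a pseudocount of 0.1, 4 with upper-quartile scaling and 4 against parental replicate 1, where 2 were against the mean.

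With each library left out in turn, the log2 change ran from -0.211 to 0.04 for TGFB1 and from -0.083 to 0.544 for FST in drug-resistant cells, and from -0.313 to 0.284 for FST in PR cells. In TS cells it ran from -0.204 to 0.116 for TGFB1, from -1.862 to 0.436 for TGFB2, from -0.642 to 0.688 for TGFB3, from -1.234 to 2.014 for TGFBR3, from -0.211 to 3.458 for INHBA and from -5.156 to 0.635 for FST. In A549 against H460 cells it ran from -1.365 to 0.925 for TGFB2 and from -1.512 to 2.149 for INHBA. Between PR and the other drug-resistant cells it ran from -0.539 to 0.055 for TGFBR1 and from -0.341 to 0.413 for TGFBR3. Genes called ran from 1008 (without PR replicate 2) to 6591 in PR cells, with 2116 without PR replicate 1 and 3519 without parental replicate 2, and 1 to 5 of the 10 genes. In TS cells they ran from 5 (without parental replicate 2) to 323 (without A549 TS cells), with 10 without parental replicate 3, 236 without H460 TS and 321 without A549 2D cells, and 0 to 2 of the 10 genes. In A549 against H460 cells they ran from 2364 (without A549 2D cells) to 3830, with 2606 without parental replicate 2. Between PR and the other drug-resistant cells they ran from 0 to 98 (without parental replicate 1), and 0 to 1 of the 10 genes.

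PR and parental cells share the replicate numbers 1 and 2, but nothing ties the numbers to a shared culture, and the differences between replicates had a correlation of 0.079 over 19430 genes. A replicate block in the fit gave 6648 genes and 4 of the 10, and the same 4 libraries without it gave 6591 and 4. TGFB3 (1.107) had an adjusted p of 0.0519 by edgeR in both, and the block changed no other call of the 10 genes.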
